A study of Mus musculus with 6 samples.

Results

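Erg and Ets2 are neighbouring genes on mouse chromosome 16 that both encode transcription factors of the ETS family. Their contacts with each other and with the chromatin around them were read from in situ Hi-C, a method that ligates DNA fragments held near each other in the nucleus and sequences the junctions, each read pair standing for 1 contact. The neighbourhood was defined as every bin of the deposited bin list that overlapped a 2.5 Mb stretch around the genes on mm10, and its bins ran from 94200680 to 96899921 of chromosome 16. This rule took 27 of the 26731 bins of the list, each of about 100 kb, and all 27 were among the 23651 autosomal bins kept after a filter on coverage.

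ETS factors bind DNA through a shared winged helix-turn-helix domain. Erg is known for maintaining haematopoietic stem cells, whereas Ets2 is widely expressed and is a target of Ras and MAP kinase signalling. Within chromosomes, contacts are gathered into domains, and the borders of many domains carry binding sites of CTCF, a zinc finger protein that halts loop extrusion by cohesin. A promoter usually meets distant regulatory DNA most often inside its own domain.

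The libraries came from 3 mouse genotypes on the background that the labels spell C56BL/6, with 2 biological replicates each. Erg KO cells were Rag1CreT/+;Erg fl/fl, the CreT control was Rag1CreT/+ and kept Erg, and Rag1Cre+/+;Erg fl/fl cells served as the Erg fl/fl control, so that floxed alleles were carried by Erg KO and by the Erg fl/fl control and the transgene by Erg KO and the CreT control. Rag1Cre is active from early lymphoid progenitors onwards. Bone marrow without lineage-positive cells from each genotype was grown for 8 days on OP9 stromal cells in SCF, IL7 and FL, and B220+ cells were then taken by positive selection. The study describes the Hi-C cells as pre-proB cells for Erg KO and as proB cells for wild type, so that loss of Erg and developmental stage cannot be told apart. Contact counts hold no expression, and the labelled cell type could not be checked against marker genes. Male mice gave replicate 2 of Erg KO and replicate 2 of the Erg fl/fl control, and the other 4 libraries were female.

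The deposited matrices summed to 29014581 to 68085468 read pairs a library, with Erg fl/fl control replicate 2 the shallowest. The study's methods give higher numbers of valid read pairs, and the reason for the gap is not given in the sources used here. Pairs that joined different chromosomes took 32.3% and 34.6% of the Erg KO libraries and 21.6% to 26.8% of the controls.

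Erg lies on the minus strand at 95359169 to 95586593 and Ets2 on the plus strand at 95702075 to 95721051 of chromosome 16, so the genes point away from each other from starts 115 kb apart. Erg covers 3 bins, called here the Erg end bin (chr16:95299918-95399271), the Erg middle bin (chr16:95399268-95500201) and the Erg start bin (chr16:95500198-95599536). Ets2 starts in the bin chr16:95699940-95799935. In the gene annotation 20 protein-coding symbols started in 12 of the 27 bins. On the side of the Erg end these were Hlcs (a biotin ligase), Ripply3 (a transcriptional co-repressor), Ttc3 (a ubiquitin ligase), Pigp (GPI anchor synthesis), Vps26c (endosomal sorting), the kinase gene Dyrk1a, and Kcnj6 and Kcnj15, which encode inwardly rectifying potassium channels. On the Ets2 side followed Psmg1 (a proteasome assembly chaperone), Brwd1 (a bromodomain protein with a role in B-cell development), Hmgn1 (a nucleosome-binding protein), Wrb (insertion of tail-anchored proteins), Lca5l, Sh3bgr, B3galt5 (a galactosyltransferase), Igsf5, Itgb2l and Pcp4 (a regulator of calmodulin).

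The window was richer in GC and in close contacts than the genome as a whole. GC content had a median of 45.6% over the 27 bins and 41.5% over the 23651 autosomal bins. The compartment score, which runs from closed gene-poor chromatin (negative) to open gene-rich chromatin (positive) in units of its SD along a chromosome, had a median of 1.07 in the control mean against -0.08 over all bins, and 24 of the 27 bins were positive in all 6 libraries. Protein-coding starts lay in 44.4% of the window bins and in 41.6% of all bins.

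Letters resembling the CTCF core motif were searched because domain borders are described below. The pattern, read on either strand, was CC, any base, C, any base, AG, any 2 bases, GGC, any base and C, and it occurred in 15 of the 27 bins and in 34.1% of all autosomal bins of the same length. A match is a description of the sequence and not a measured binding site. The following GRCm38 (mm10) sequences are those of the bins at the strongest borders and at the far-reaching contacts of Erg, read 5′ to 3′ on the strand given, with the matched letters in capitals.
Border bin at the 3′ end of Kcnj6, chr16:94713906-94713935, minus strand: cagcatgcCCACCAGGGGGCGCtgtggccg
Border bin at the 3′ end of Kcnj6, chr16:94783883-94783912, minus strand: tcaatgttCCACTAGGGGGCGCctgtcaat
Border bin at the 3′ end of Kcnj6, chr16:94788354-94788383, plus strand: ccgctgcgCCGCCAGGTGGCGCtggcgctt
Erg end bin, chr16:95357576-95357605, plus strand: tcccaccaCCACCAGATGGCTCcccccagg
Erg start bin, chr16:95595272-95595301, minus strand: accccaccCCTCCAGTGGGCCCttgaacat
Erg start bin, chr16:95595356-95595385, minus strand: accctgccCCTCCAGTGGGCCCttgaagcc
Psmg1 bin, chr16:95929784-95929813, plus strand: acacacttCCTCCAGAAGGCTCcctctcct
Psmg1 bin, chr16:95945584-95945613, minus strand: catcttgtCCTCAAGGTGGCGCtagatgtg
Psmg1 bin, chr16:95974198-95974227, minus strand: aggccaaaCCTCCAGATGGCGCcactccct
Hmgn1 and Wrb bin, chr16:96151738-96151767, minus strand: cacagcggCCACCAGGTGGCGCccaccacc
Hmgn1 and Wrb bin, chr16:96153912-96153941, plus strand: gccagttcCCACAAGAAGGCCCacccccac

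The targeted gene was examined first. Since the deletion is shorter than 1 bin, contact counts do not resolve it. Coverage (the total of a bin divided by the median total of its neighbours up to 2 Mb away) stood at 0.895 and 0.916 for the Erg start bin in the Erg KO libraries and at 0.949, 0.932, 0.907 and 0.967 in CreT control replicates 1 and 2 and Erg fl/fl control replicates 1 and 2. These groups overlapped. In the Erg end bin, coverage was 1.04 and 1.08 in Erg KO and 1.08, 1.11, 1.08 and 1.09 in the controls in the same order, with both Erg KO libraries just below all 4 controls. The difference was -0.04 on the log2 scale (exact permutation test over 15 regroupings, two-sided, p = 0.0667, 0.267 after Benjamini-Hochberg adjustment over 4 bins, n = 2 against 4). A p of 0.0667 is the smallest that 2 against 4 libraries can give, so that no exact test here could reach 0.05. The Erg middle bin (exact p = 0.6) and the Ets2 start bin (exact p = 0.333, both n = 2 against 4) overlapped between groups.

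In the control cells, some bins well away from Erg had more contact with it than their distance alone gives. Observed over expected, which divides the count of a bin pair by the autosomal mean of the same library for pairs equally far apart, was taken for this. It is not corrected for how many contacts each bin has in all, so a high value need not be particular to Erg. From the Erg end bin the highest value lay at the bin of Psmg1 (chr16:95900247-95999706), 6 bins away and beyond Ets2, which was picked out after its values were seen. Contacts there were 3.33 and 3.43 times the expected in CreT control replicates 1 and 2 and 2.79 and 3.60 times in Erg fl/fl control replicates 1 and 2. The Erg KO libraries gave 3.44 and 3.06, inside that range. From the Erg start bin, the Psmg1 bin averaged 2.72 ± 0.255 (SD, n = 4) in controls and 2.49 ± 0.139 (SD, n = 2) in Erg KO, and from the Ets2 start bin 2.67 ± 0.312 and 2.88 ± 0.348.

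Relative to the expectation, the Erg end, Erg start and Ets2 start bins each met the Psmg1 bin more than any other bin of the window in the control mean, and none of these contacts passed the test for a change (edgeR quasi-likelihood test, adjusted p = 0.268 from the Erg end, 0.0780 from the Erg start and 0.829 from the Ets2 start bin). The Psmg1 bin was also high in local contacts, a measure given below, at 85.3 in the control mean against a median of 40.4 over all bins. The part of this in its high values was not tested. The Psmg1 bin holds 3 of the CTCF-like matches printed above, 1 on the plus and 2 on the minus strand. On the other side, Erg met the bin chr16:94700006-94800505, at the 3′ end of Kcnj6, and the next bin at 2.07 to 2.23 times the expectation in the control mean. Here the ends of Erg differed. From the Erg start bin the contact with chr16:94700006-94800505 was 1.41 and 1.59 in Erg KO and 2.06, 1.78, 2.33 and 2.69 in the controls, with no overlap, a log2 fall of 0.71 (SE 0.24) that passed with an edgeR adjusted p = 0.0349. From the Erg end bin this contact was 2.18 and 2.61 in Erg KO against 1.80 to 2.26 in controls, overlapping, with a change of 0.01 (SE 0.19). Whether these changes differ from each other was not tested.

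Direct contact between the genes was lower in Erg KO at the Erg end, by the edgeR test. Erg end to Ets2 start had 41.9 and 49.7 normalised read pairs in Erg KO, 68.2 and 62.7 in the CreT control and 58.1 and 80.0 in the Erg fl/fl control. Both Erg KO libraries lay below all 4 controls. The contact fell by 0.64 (log2, SE 0.20, edgeR adjusted p = 0.0171), and passed against the CreT control alone (adjusted p = 0.0445) but not against the Erg fl/fl control alone (adjusted p = 0.0776).

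Erg start to Ets2 start, the contact between the bins of both promoters, had 60.4 and 75.3 normalised read pairs in Erg KO, 81.6 and 85.9 in the CreT control and 80.5 and 88.6 in the Erg fl/fl control. These values did not overlap between groups, yet the change of -0.38 (SE 0.17) did not pass (edgeR adjusted p = 0.131). This pair is 2 bins apart and in the controls stood close to what distance alone gives, at 1.10 ± 0.050 times the expected (SD, n = 4), and at 0.905 ± 0.134 in Erg KO (SD, n = 2). The Erg end bin, although farther from Ets2, met it 1.61 ± 0.181 times the expected in controls and 1.16 ± 0.141 times in Erg KO. With offsets for the coverage of both bins in each library the change of the Erg start contact was 0.15 and that of the Erg end contact -0.15, and neither passed (edgeR). The Erg end contact also lost its call with GC offsets, without a sex term, by DESeq2 (-0.60), and without CreT control replicate 1, Erg fl/fl control replicate 2 or either Erg KO library.

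The ends of Erg met each other strongly, at 2.45 ± 0.366 times the expected in controls (SD, n = 4). Normalised read pairs were 121 and 167 in Erg KO, 188 and 176 in the CreT control and 160 and 243 in the Erg fl/fl control. Erg KO replicate 1 was the lowest of all and Erg KO replicate 2 lay within the range of the controls. The contact fell by 0.55 (SE 0.11, edgeR adjusted p = 0.000138) and passed against each control alone, but not without either Erg KO library, with TMM scaling (-0.38), with coverage offsets (-0.08), with GC offsets (-0.23) or by DESeq2 (-0.36).

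Summed over all 3 Erg bins, contact with the Ets2 start bin was 0.995 and 1.20 times the expected in Erg KO and 1.32, 1.30, 1.21 and 1.40 times in CreT control replicates 1 and 2 and Erg fl/fl control replicates 1 and 2. The log2 difference was -0.26 (two-sided exact permutation p = 0.0667, 0.0889 after adjustment over 4 contacts, n = 2 against 4). The higher Erg KO library nearly met the lowest control, and the difference was -0.13 with Erg KO replicate 1 left out, -0.39 with the other Erg KO library left out and 0.06 with balanced contacts in place of counts.

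**Figure D1:**
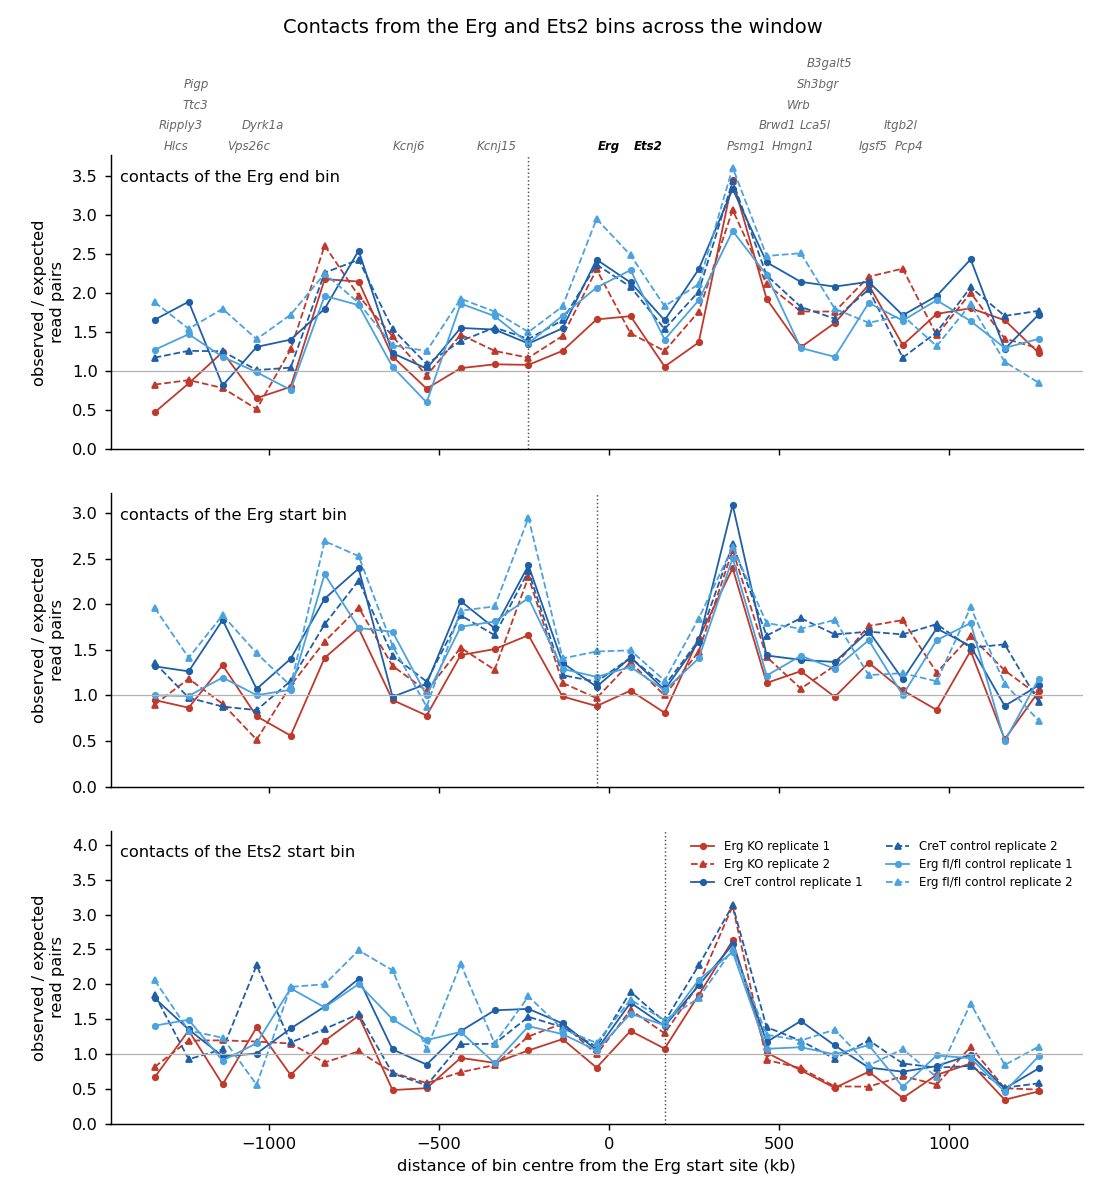
Contacts of the Erg end bin (top), the Erg start bin (middle) and the Ets2 start bin (bottom) with each of the 27 bins, as observed over expected read pairs (vertical axis, a ratio with no unit whose expectation of 1 is the grey line), against the distance of the bin centre from the Erg start site in kb. Each line is 1 library, with Erg KO in red, the CreT control in dark blue and the Erg fl/fl control in light blue, the dotted line marks the viewpoint and gene names stand at their starts. In the control mean all 3 viewpoints peak at the Psmg1 bin, at 3.29, 2.72 and 2.67, although single libraries can be higher elsewhere, as Erg fl/fl control replicate 2 is from the Erg start bin at the Erg end bin.

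Across the window, contacts were lower in Erg KO and none was called higher. Of 378 possible bin pairs, counting each bin with itself, 349 were tested, and 96 of them (27.5%) fell when Erg KO was set against both controls while 0 rose by edgeR, with 175 lower and 0 higher at an unadjusted p under 0.05. With offsets for the coverage of both bins in each library the same tally was 37 lower and 30 higher, and the median change -0.04. Over all 431824 bin pairs tested, 6.37% fell and 6.43% rose, and among those up to 2.5 Mb apart 6.84% fell and 6.96% rose. In the window 313 pairs had a negative and 36 a positive change, and the median change was -0.46 on the log2 scale against 0.00 over all pairs within 2.5 Mb. The window's pairs share bins and libraries and are not independent of each other.

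Against the CreT control alone 50 of the 349 pairs fell and 0 rose (all pairs: 3.52% fell and 3.74% rose), and against the Erg fl/fl control alone 75 fell and 0 rose (all pairs: 5.33% and 4.1%). These comparisons share the Erg KO libraries. Between the 2 controls edgeR called 0 of the 349 in either direction, with 26 at an unadjusted p under 0.05 (all pairs: 0.000232% fell and 0% rose), and the median was -0.02. The count of falls depended on single libraries and on scaling. It was 0 with either Erg KO library left out, 57 without CreT control replicate 1, 21 without the second Erg fl/fl control library, and 6 with coverage offsets, 15 with GC offsets and 0 by DESeq2. Over all pairs tested 0% fell with either Erg KO library left out, 3.92% and 1.78% without those control libraries, 0.369% with coverage offsets, 0.968% with GC offsets and 0.00463% by DESeq2, which called only 20 falls and 34 rises in all. No pair of the window rose at the adjusted threshold under any of these settings.

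**Figure D2:**
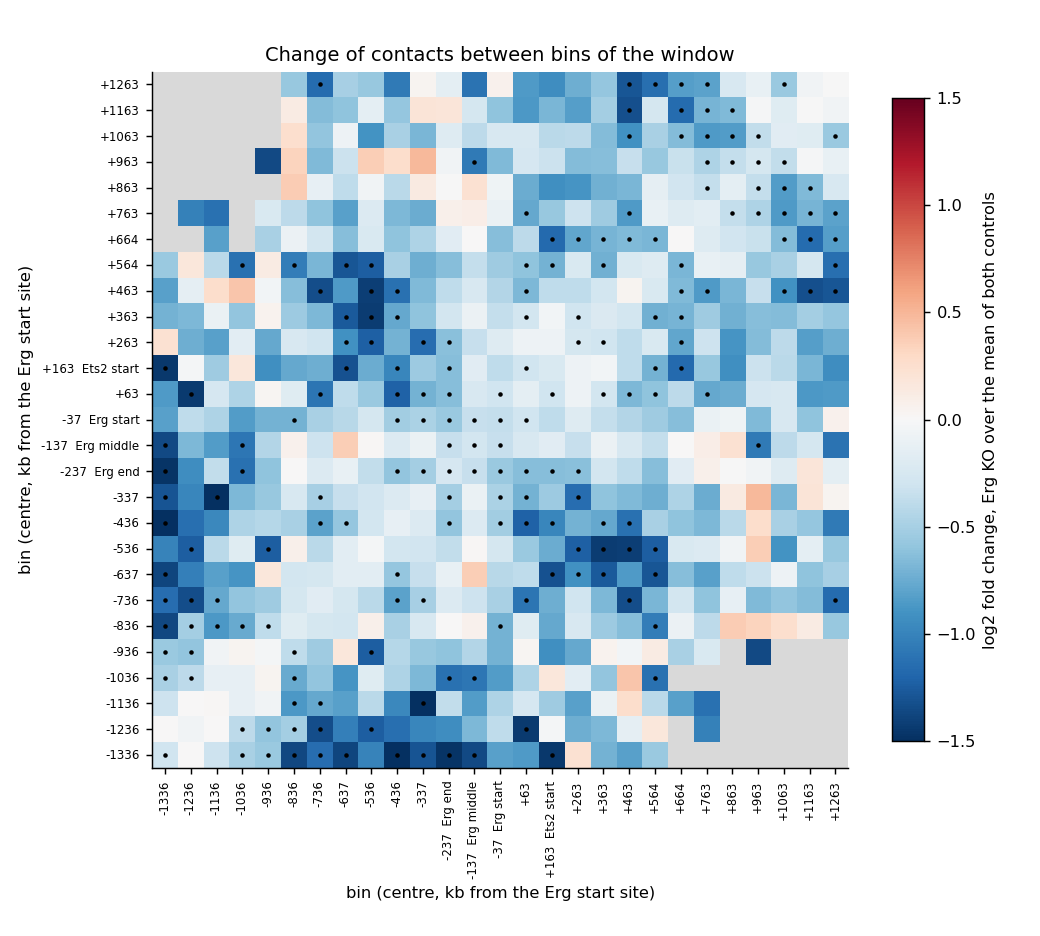
Change of contact between every 2 of the 27 bins, coloured by the log2 difference between Erg KO and the mean of both controls (blue for lower in Erg KO), with bins on both axes named by the distance of their centre from the Erg start site in kb. Black dots mark the 96 bin pairs that passed, all of them lower, grey marks pairs that were not tested, and colours are capped at 1.5 in either direction.

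The falls were spread over distance but not evenly over the map. Of pairs 0 to 4 bins apart 51 of 125 fell, of those 5 to 9 apart 31 of 100, of those 10 to 14 apart 11 of 75, and of those 15 to 26 apart 3 of 49. The shares of all autosomal pairs in these distance classes were not computed, so the classes cannot be set against the genome. The median change was -0.30 in the nearest class and -0.64 at 5 to 9 bins, so the nearest pairs, which have the most read pairs, passed at smaller changes. The median mean count was 118 read pairs a library in the nearest class and 15.8 in the farthest.

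Pairs of the Erg start or Erg end bin made up 53 of the 349, of which 16 (30.2%) fell and 0 rose by edgeR (29 lower and 0 higher at an unadjusted p under 0.05). This share was close to the 27.5% of the whole window. Among all pairs up to 2.5 Mb apart 6.84% fell and 6.96% rose. For the Erg start bin 7 of 27 fell, 5 of the 13 on the Kcnj15 side and 1 of the 13 on the Ets2 side, besides the bin with itself. Those on the Kcnj15 side include the Erg middle and Erg end bins. For the Erg end bin 10 of 27 fell, among them its contacts with Kcnj15 (-0.51, SE 0.10), with the bin just beyond the Erg start (-0.64, SE 0.14), with the bin after Ets2 (-0.62, SE 0.19) and with the Dyrk1a and Vps26c bin 8 bins away (-1.12, SE 0.35). Contacts of the Erg end bin with the 7 bins from B3galt5 to the far edge lay between -0.19 and 0.18 and none passed. For the Ets2 start bin 7 of 27 fell, among them the Kcnj6 bin (-1.31, SE 0.34), the bin of Hmgn1, Wrb, Lca5l and Sh3bgr (-0.70, SE 0.23) and the B3galt5 bin (-1.17, SE 0.29), while Psmg1 next to it stood at -0.04 (SE 0.10). So each of the 3 bins had lower contacts with some bins on both sides, and contacts with Psmg1 were not among those called. The Psmg1 changes were nevertheless -0.36 (SE 0.14) from the Erg start and -0.27 (SE 0.16) from the Erg end bin. The first was larger than a change of the Erg start bin that was called, -0.30 (SE 0.10) with the bin just beyond it.

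By the naming rule, the 5 largest falls among the 80 pairs that passed with a mean count of at least 20 and the same sign against each control lay mostly on the Kcnj6 side. The largest joined the bin chr16:94400481-94499966, in the 3′ part of Ttc3, to the Kcnj15 bin, with 9.54 and 7.71 normalised read pairs in Erg KO, 26.1 and 15.2 in the CreT control and 25.9 and 47.0 in the Erg fl/fl control. It fell by 1.80 (log2, SE 0.37, edgeR adjusted p = 0.000128), and by 1.27 without Erg fl/fl control replicate 2, when it no longer passed. Next came the bin chr16:94999904-95100334, between Kcnj6 and Kcnj15, with the Psmg1 bin, at 11.6 and 12.1 in Erg KO and 23.7, 26.4, 30.0 and 42.2 in the controls, a fall of 1.42 (SE 0.33).

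The first bin of the window with the border bin chr16:94700006-94800505 had 38.5 and 27.3 normalised read pairs in Erg KO against 77.1, 54.8, 66.5 and 127 in the controls, a fall of 1.37 (SE 0.21) that did not pass without Erg fl/fl control replicate 2. The bin of Hlcs, Pigp, Ripply3 and Ttc3 with chr16:94800502-94899930, in the body of Kcnj6, fell by 1.33 (SE 0.28), and the latter bin with the Brwd1 bin by 1.33 (SE 0.34). That last change was -0.74 when Erg KO replicate 1 was dropped, -2.04 when the other Erg KO library was and -2.05 when Erg fl/fl control replicate 2 was, and the Ttc3 to Kcnj15 and first bin changes ranged likewise, from -2.43 to -1.27 and from -2.22 to -0.76. In all 5 pairs both Erg KO libraries lay below every control, and none passed by DESeq2. In the last pair the margin was narrow, with 18.7 normalised read pairs in Erg KO replicate 2 and 19.2 in CreT control replicate 2. The 5 pairs were picked from these same data as the largest falls that passed, so their separation is partly a result of the choice. Among all tested pairs of the window, 156 were separated in this direction and 2 in the other. The share over all autosomal pairs was not counted.

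To set aside single pairs, the window was divided into 5 blocks in gene order, namely the centromeric flank up to Kcnj15, the 3 Erg bins, the 3 Ets2 bins, Psmg1 to B3galt5, and the Dscam side, named for a neuronal adhesion gene that starts outside the window. The 2 edge bins were left out. In 12 of 15 block pairs both Erg KO libraries lay below all 4 controls, and in 3 the groups overlapped. No other region was divided in this way, so these counts have no background. The centromeric flank with the Ets2 block differed most, with 1.07 and 1.03 times the expected in Erg KO, 1.54 and 1.30 in the CreT control and 1.54 and 1.89 in the Erg fl/fl control. Its log2 difference was -0.56 (two-sided exact permutation p = 0.0667, 0.0909 after adjustment over 15 block pairs, n = 2 against 4). The centromeric flank with Psmg1 to B3galt5 followed at -0.46 and the Ets2 block with the Dscam side at -0.45, each with the same exact p.

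Within Erg, the value was 1.23 and 1.49 in Erg KO and 1.65, 1.62, 1.62 and 1.90 in the controls, a log2 difference of -0.33, and all 6 of its bin pairs fell by edgeR. That difference was -0.19 and -0.46 with the first and the second Erg KO library left out and -0.05 with balanced contacts. Erg with the Ets2 block was 1.25 and 1.38 against 1.61, 1.52, 1.48 and 1.67, a difference of -0.26, and 4 of 9 pairs fell. Erg with Psmg1 to B3galt5 was the strongest block contact of the window, at 1.88 and 2.05 in Erg KO and 2.28, 2.14, 1.93 and 2.18 in the controls, and here the groups overlapped (exact p = 0.267, n = 2 against 4) and edgeR called 0 of 12 pairs. Erg with the Dscam side (-0.03) and within the Ets2 block (-0.11) also overlapped. By edgeR the median change of bin pairs was -0.35 within Erg and -0.36 for Erg with Psmg1 to B3galt5. Pairs within Erg had more read pairs (median mean count 242 against 45.7 a library), so the calls do not rank these changes by size. Among all pairs up to 2.5 Mb apart 6.84% fell and 6.96% rose.

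With balanced contacts, which remove the differences in coverage between bins, 8 of the 15 block differences were above 0, among them Erg with Ets2 (0.05), Erg with Psmg1 to B3galt5 (0.18), Erg with the Dscam side (0.28) and within the Ets2 block (0.23). The centromeric flank with Ets2 and the contacts of Ets2 and of Psmg1 to B3galt5 with the Dscam side were still negative but smaller, at -0.22 (from -0.56), -0.13 (from -0.45) and -0.03 (from -0.34).

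**Figure D3:**
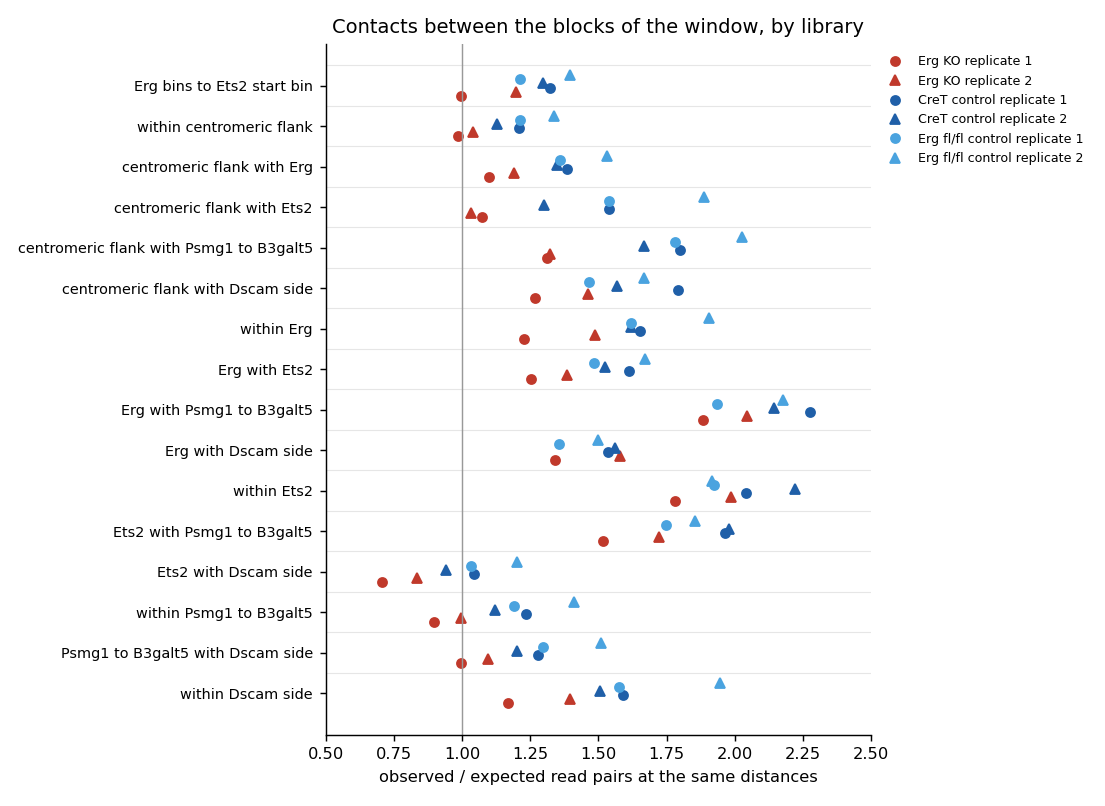
Contacts of the Erg bins with the Ets2 start bin (top line) and between the 5 blocks of the window, as observed over expected read pairs (horizontal axis, a ratio with no unit whose expectation of 1 is the grey line). Each point is 1 library, red for Erg KO, dark blue for the CreT control and light blue for the Erg fl/fl control. The Erg KO points lie left of all control points in 12 of the 15 block pairs, and Erg with Psmg1 to B3galt5 reaches furthest right. No other region was divided in this way.

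Erg met the side of Ets2 more often than the side of Kcnj15 in every library. The summed contacts of the Erg bins with the 10 bins after the gene, over those with the 10 bins before it, were 1.33 and 1.35 in Erg KO, 1.31 and 1.27 in the CreT control and 1.19 and 1.18 in the Erg fl/fl control. Both Erg KO libraries were above all controls, by a log2 difference of 0.11 (two-sided exact permutation p = 0.133, n = 2 against 4). The CreT control stood 0.12 above the Erg fl/fl control, about as far as Erg KO stood above both.

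The insulation score was used to place domain borders. It is the log2 of balanced contact across a bin, between the 5 bins before and the 5 bins after it, over the mean of its chromosome, and a border shows as a low score. In the control mean, local minima lay at chr16:94300376-94400484 (Hlcs to Ttc3), chr16:94700006-94800505 (the 3′ end of Kcnj6), chr16:95100331-95200233 (before Kcnj15), the Erg end bin, chr16:96100168-96200594 (Hmgn1, Wrb, Lca5l and Sh3bgr) and chr16:96599590-96699936 on the Dscam side. All but the last hold at least 1 CTCF-like match, as do 15 of the 27 bins of the window. The Hlcs to Ttc3 bin was a minimum only in CreT control replicate 1 and Erg fl/fl control replicate 2. Its control mean was 0.612 against 0.617 in the next bin. The minimum before Kcnj15 was absent in both Erg KO libraries and CreT control replicate 2. The Erg end bin and the last bin named were minima in neither Erg fl/fl control library. Only the minima at chr16:94700006-94800505 and at Hmgn1 fell below 0 in the control mean, and the former was a local minimum in all 6 libraries.

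The deepest border was the one at the 3′ end of Kcnj6. It scored -0.999 and -1.20 in Erg KO, -0.70 and -0.94 in the CreT control and -0.56 and -0.13 in the Erg fl/fl control, with both Erg KO libraries lowest. The difference was -0.54 (SE 0.13, limma adjusted p = 0.0184), and it passed against the Erg fl/fl control alone (-0.75, adjusted p = 0.00945) but not against the CreT control alone (-0.33, adjusted p = 0.203). It was -0.94 without Erg KO replicate 1 and -0.31 without either male library, and passed in each case. Leaving out 1 male gives the same fit as leaving out the other, because the sex term then takes up the one that remains. At the Hmgn1 border the scores were -0.50 in each Erg KO library, -0.23 and -0.46 in the CreT control and -0.16 and 0.01 in the Erg fl/fl control, a difference of -0.31 (SE 0.08, limma adjusted p = 0.0276) that did not pass without CreT control replicate 1 (-0.25). The CreT control stood nearer to Erg KO than the Erg fl/fl control did at both borders.

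The highest insulation score of the window, the place least like a border, lay at Ets2, with 0.95 and 0.90 in Erg KO, 0.92 and 0.85 in the CreT control and 0.85 in each Erg fl/fl control library. The groups overlapped and the difference of 0.07 (SE 0.06) did not pass (limma adjusted p = 0.423). The minimum at the Erg end bin was shallow, at 0.11 and -0.10 in Erg KO, 0.15 and 0.01 in the CreT control and 0.27 and 0.38 in the Erg fl/fl control, a difference of -0.19 (SE 0.08) that did not pass (limma adjusted p = 0.122). The Erg start bin differed by -0.17 (SE 0.08, limma adjusted p = 0.122). Single libraries decided both. With Erg KO replicate 1 dropped the values were -0.39 and -0.31, with Erg fl/fl control replicate 1 dropped -0.23 and -0.20, and these passed, whereas they were -0.07 and -0.09 and did not pass without either male library.

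In all, the insulation score fell in 13 of the 27 bins and rose in 0 by limma, with 17 at an unadjusted p under 0.05. Over all autosomal bins scored, 14.8% fell and 11.3% rose. The contacts that enter the scores of neighbouring bins overlap, so these bins are not independent of each other. The falls covered the stretch from the first bin to the Kcnj6 border, the Erg middle bin, the bins of Brwd1 and Hmgn1, and 4 bins from Igsf5 onwards. The lowest adjusted p belonged to the bin chr16:96500084-96599593, with 0.09 and 0.23 in Erg KO and 0.39, 0.33, 0.58 and 0.75 in the controls, a difference of -0.39 (SE 0.06, limma adjusted p = 0.00653). Set against the CreT control by itself 1 bin fell (all bins: 3.89% fell and 5.23% rose), and against the Erg fl/fl control by itself 16 (all bins: 17.1% and 12%), whereas between the controls limma called 0 (all bins: 0%), with 9 at an unadjusted p under 0.05. The count was 5 without CreT control replicate 1, where 6.77% of all bins fell, and 27 on counts that were not balanced, where 26.7% fell and 39.1% rose.

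Compartment scores showed Erg and Ets2 in open chromatin in every library. The Ets2 start bin scored 1.37 and 1.30 in Erg KO, 1.30 and 1.29 in the CreT control and 1.34 and 1.18 in the Erg fl/fl control. At the Erg start bin it was 1.21 in both Erg KO libraries and up to 1.26 in the controls. Neither passed, with differences of 0.09 (SE 0.03, limma adjusted p = 0.155) and 0.01 (SE 0.04, limma adjusted p = 0.846), and the groups overlapped at each.

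Along Erg itself the score declined towards the 3′ end of the gene, to 0.69 and 0.65 in Erg KO and 0.85, 0.62, 0.96 and 1.08 in the controls at the Erg end bin. Beyond it lay a dip between Kcnj6 and Kcnj15, lowest at chr16:94999904-95100334 with 0.03 and -0.10 in Erg KO, 0.11 and -0.02 in the CreT control and 0.47 and 0.71 in the Erg fl/fl control. There both Erg fl/fl control libraries stood apart from the other 4, and Erg KO and the CreT control overlapped. The change of -0.36 against both controls did not pass (SE 0.10, limma adjusted p = 0.0952), with -0.11 when the CreT control and -0.62 when the Erg fl/fl control was the reference.

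Over the window the compartment score fell in 1 bin and rose in 0 by limma (13 at an unadjusted p under 0.05), where 2.71% of all bins fell and 1.86% rose. The bin was the last of the window, chr16:96799870-96899921, with -0.03 and 0.23 in Erg KO, 0.25 and 0.18 in the CreT control and 0.30 and 0.66 in the Erg fl/fl control. It fell by 0.33 (SE 0.04, limma adjusted p = 0.0403) in a fit with sex as a covariate, although its groups overlapped. Limma called 0 of the 27 bins without the sex term, and 0 of all 23651 bins.

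**Figure D4:**
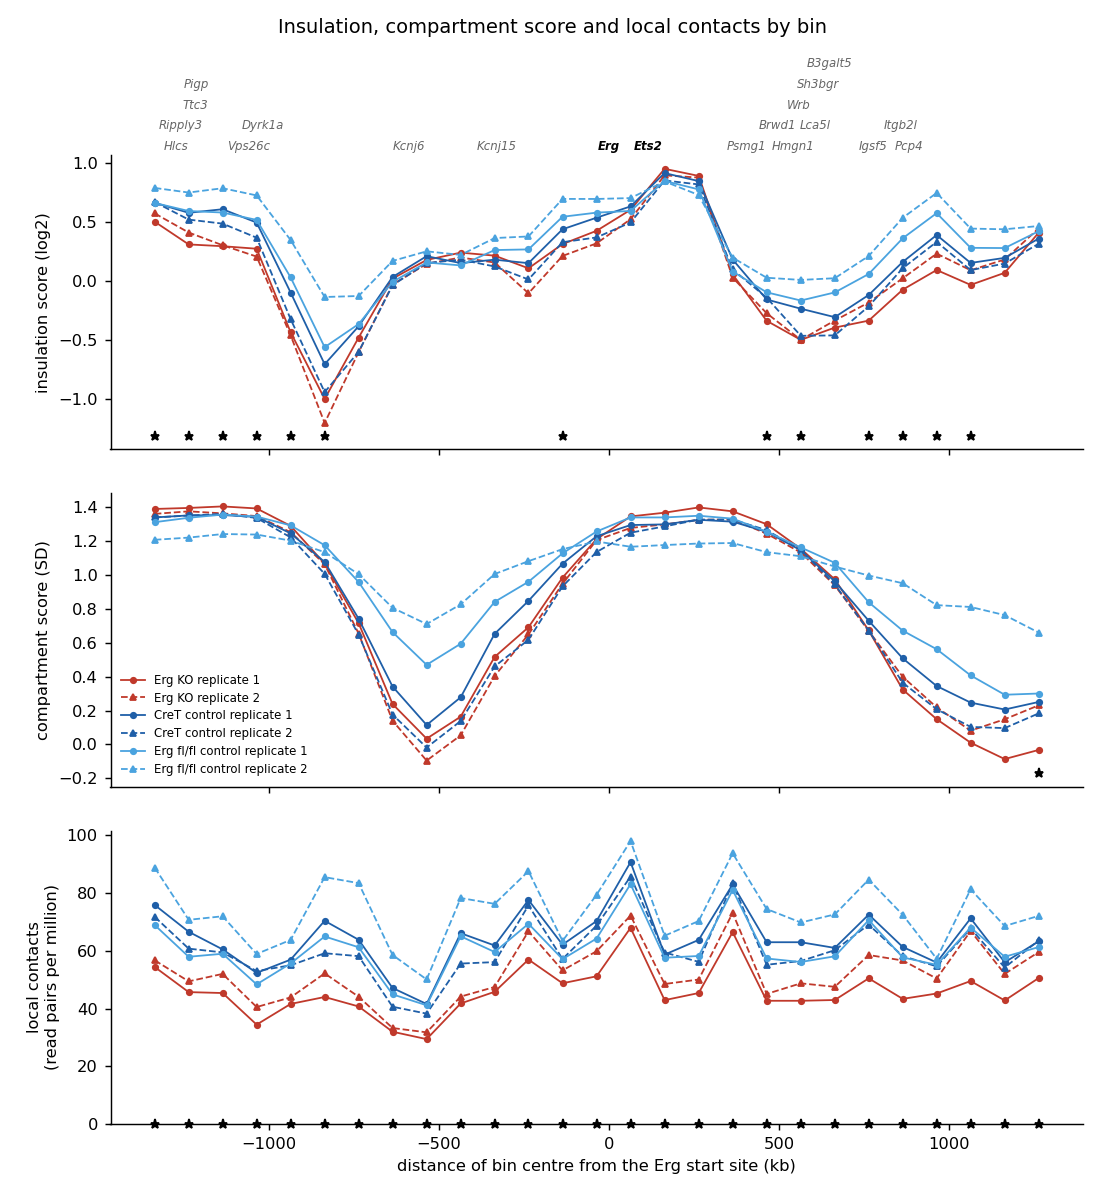
Insulation score (top, log2), compartment score (middle, in SD units) and local contacts (bottom) of the 27 bins, against the distance of the bin centre from the Erg start site in kb. Local contacts are per 1000000 of the local contacts summed over the kept bins of a library, after TMM scaling. Each line is 1 library, red for Erg KO, dark blue for the CreT control and light blue for the Erg fl/fl control, and stars mark bins that passed against both controls, which were 13, 1 and 27 bins. The insulation score is highest at Ets2 and lowest at the 3′ end of Kcnj6, and the Erg KO lines are lowest in local contacts at every bin.

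Local contacts, the summed contacts of a bin with bins 200 kb to 2 Mb away, were the measure in which the neighbourhood moved most evenly. They fell in 27 of the 27 bins and rose in 0 by edgeR, and over all autosomal bins 33.2% fell and 34.3% rose. A read pair that joins bins of the window counts for each of them, so the 27 bins are not independent of each other. Local contacts are given per 1000000 of the local contacts summed over the kept bins of a library, after TMM scaling. For the Erg start bin they were 51.2 and 59.9 in Erg KO, 70.3 and 68.7 in the CreT control and 64.3 and 79.4 in the Erg fl/fl control, a fall of 0.42 (log2, SE 0.06, edgeR adjusted p = 3.33e-06). For the Ets2 start bin they were 42.9 and 48.5, 58.7 and 59.4, and 57.6 and 65.2, a fall of 0.44 (SE 0.06, adjusted p = 2.49e-06). With GC offsets these bins and the Erg end bin no longer passed, at -0.11 for Erg start (edgeR adjusted p = 0.0794), -0.14 for Ets2 start (0.0512) and -0.08 for Erg end (0.203).

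Both Erg KO libraries lay below all 4 controls in all 27 bins. How many of all bins show this separation was not counted, and 33.2% of all bins fell by edgeR. The changes ran from -0.71 in the body of Kcnj6 (chr16:94800502-94899930) to -0.25 at chr16:96500084-96599593, with a median of -0.47 against 0.01 over all bins. The Erg middle bin lay at the small end of this range, at -0.27. The Erg end bin (-0.40) and the Erg start bin (-0.42) lay nearer to the median, and Psmg1 stood at -0.33. Each control taken alone gave 27 falls of 27 (all bins: 30.2% fell and 30.2% rose against the CreT control, and 31.5% and 32% against the Erg fl/fl control), and between the controls edgeR called 0, with 0 at an unadjusted p under 0.05. The falls numbered 26 or 27 with each of the 6 libraries left out in turn, and 18 with GC offsets, where 17.2% of all bins fell. In controls the window's bins had a median of 63.0 read pairs per 1000000 in local contacts and all bins 40.4. The share of pairs between chromosomes was higher in both Erg KO libraries than in the controls, and its part in these falls was not tested.

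The other ETS family genes were taken as a list for comparison, 22 genes on other chromosomes or elsewhere on chromosome 16. In local contacts their bins fell in 16 and rose in 1 (all bins: 33.2% fell and 34.3% rose), with a median of -0.37. Lower local contacts were thus not limited to Erg and Ets2. Those that fell were Fev, Etv3, Elk4, Fli1, Elk3, Spi1, Spdef, Elf3, Elf5, Elf2, Etv5, Elf1, Etv2, Etv4, Spib and Erf, from -0.14 at Etv5 to -0.64 (SE 0.06) at Etv3. Spi1, which encodes PU.1, changed by -0.41 (SE 0.06), Spib, which encodes its B-cell relative Spi-B, by -0.60 (SE 0.07) and Fli1, the closest relative of Erg, by -0.21 (SE 0.06). Etv1 rose by 0.24 (SE 0.07, edgeR adjusted p = 0.00668), and Ets1, Etv6, Ehf, Gabpa and Spic did not pass.

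The insulation score fell in 7 of the 22 ETS bins (Fev, Etv3, Elk4, Spi1, Elf1, Etv2 and Spib) and rose in 1 (Etv1), with a median of -0.08. Over all bins 14.8% fell and 11.3% rose. The compartment score passed in 0 of 22 by limma (all bins: 2.71% fell and 1.86% rose). Over the 6 libraries, the compartment scores most like those of the Erg start bin were those of Fev (Pearson r = 0.490), Ets1 (0.450) and Etv3 (0.423), which is given as a description only, since all bins come from the same 6 libraries.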

How the data were processed

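The 6 in situ Hi-C libraries, 2 biological replicates of B-cell progenitors for each of 3 genotypes, were analysed. The deposited matrices hold raw counts of read pairs for bin pairs of about 100 kb, with 1 list of bins for all 6 libraries. Per the methods of the authors, diffHic was used for alignment to mm10, with marking of duplicates and removal of unligated or overlong fragments. The bins were checked to start at GATC sites and to end where 19 of 19 autosomes end.

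Autosomal bins with total contacts of 0.3 to 3 times the autosomal median were kept (23651 of 24067), in place of lists of excluded regions. Bin pairs with at least 10 read pairs and 5 times the abundance of contacts between chromosomes in 500 kb bins, scaled to bin area, were tested. For diffHic's filter and its loess offsets, own code was used. Bin pairs and local contacts (TMM scaling) were compared by edgeR 4.0.16 (quasi-likelihood test, R 4.3.3), and scores with limma 3.58.1, with group and sex as terms, 2 residual degrees of freedom and Benjamini-Hochberg adjustment over all features at 0.05. Fits were tested on simulated data. Library values were compared by exact permutation tests. Insulation used balanced contacts. Compartment scores came from a principal component analysis of each chromosome's smoothed contact map after division by the expectation, taking from the first 3 components that nearest to gene density. Tables and figures were made in Python 3.11.15 with numpy 2.4.6, pandas 2.3.3, scipy 1.17.1 and matplotlib 3.10.9.

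Named bin pairs are those between the Erg start, Erg end and Ets2 start bins and the 5 largest changes in each direction that passed with the same sign against each control and a mean count of at least 20. Named bins are local minima of insulation in the control mean, and named ETS genes are those that passed and the 3 with the highest correlation. The members, lists and rules were chosen with earlier results of these data known. Alternatives for scaling, offsets, filters, covariates, balancing, windows, DESeq2 1.42.0 and left-out libraries were also run. P-values measure the spread between these libraries, and read pairs without molecular identifiers carry more than counting error.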

Additional observations from a re-analysis of the deposited data

How the results depend on the processing

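Of the model fits and counts that answer a comparison, 120 values under an alternative setting held. For fits this means the same direction and side of the threshold, and for counts a change of at most 1.5 times. Many of the 120 were counts of rises that were 0 and stayed 0, so this number does not show how well the falls held. Another 42 values lost a call or shrank in count by over 1.5 times, 6 gained a call or grew by as much, and 1 changed sign. Of values with an exact test, which cannot pass at this number of libraries, 151 kept their sign and 12 changed it. Local contacts fell in 18 to 27 of 27 bins, with 18 under GC offsets (17.2% of all bins) and 27 under coverage offsets, where 85.4% of all bins fell, their median was -0.42 and the count says nothing about the window. Those offsets and the coverage offsets for local contacts, and an abundance filter not scaled to bin area (105 window pairs fell, all pairs: 9.6%), were chosen after seeing the data. For bin pairs of the window, 96 fell as reported and 0 rose at the adjusted threshold under any setting. The falls came to 6 with offsets for bin coverage, 15 with GC offsets, 46 without the sex term, 0 by DESeq2 and 0 to 112 with 1 library left out. For pairs of the Erg start or end bin (16 as reported) the counts were 7 with TMM factors, 0 with coverage offsets, 0 with GC offsets, 5 without the sex term, 0 by DESeq2 and 0 to 17 with 1 library left out. Each fit with 1 library left out had 1 residual degree of freedom, whichever library was dropped, so counts of calls from these fits are unstable. The reason that calls were lost over the whole genome without either Erg KO library was not tested.

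Replicate numbers did not pair the libraries (correlations of deviations of -0.006, 0.07 and -0.07 between the groups). With the number as a replicate block in place of sex, 51 window pairs and 7 pairs of the Erg bins fell (all pairs: 3.2%). The insulation score fell in 8 bins (all bins: 7.86%) and the compartment score in 0 (all bins: 0%). Erg end to Ets2 start stood at -0.55 and no longer passed.

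Erg end to Ets2 start stood at -0.15 with coverage offsets, -0.32 with GC offsets, -0.54 without the sex term, -0.60 by DESeq2 and -0.78 to -0.56 with 1 library left out. Erg start to Erg end stood at -0.38 with TMM factors, -0.0798 with coverage offsets, -0.23 with GC offsets, -0.36 by DESeq2 and -0.62 to -0.49 with 1 library left out. Erg start to Ets2 start was 0.15 with coverage offsets. The insulation score fell in 8 bins without the sex term (all bins: 7.8%), 6 with 3 bins on either side (all bins: 9.87%) and 27 with raw counts (all bins: 26.7%). This count also varied with 1 library left out. The compartment score fell in 0 bins without the sex term and, with 1 library left out, fell in 0 to 11 and rose in 0 to 7. With balanced contacts the Erg to Ets2 difference was 0.0612, and those of block pairs were 0.0427 within the centromeric flank, 0.00962 for it with Erg, 0.0994 for it with the Dscam side, 0.0546 for Erg with Ets2, 0.18 for Erg with Psmg1 to B3galt5, 0.28 for Erg with the Dscam side, 0.23 within Ets2 and 0.0811 for Ets2 with Psmg1 to B3galt5. Erg with the Dscam side ranged from -0.149 to 0.0875 with 1 library left out, and coverage of the Erg middle bin from -0.0313 to 0.00268. Coverage of the Erg start bin differed by 0.00621 in contacts with other chromosomes alone. Among named bins, the insulation score of the minimum before Kcnj15 (0.04 as reported) was -0.14 with 10 bins on either side and -0.31 with raw counts, and -0.0390 to 0.0914 with 1 library left out, that of Ets2 -0.26 with raw counts, and the compartment score of the Erg start bin -0.0110 to 0.0455 with 1 library left out. The cause of these changes was not tested. Distant pairs had the smallest counts.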
